A study of Mus musculus with 5 samples.

Results

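The interleukin-1 family is a set of related cytokines with receptors that are related to each other too. The 10 genes described here were taken by symbol from the 27998 genes of the table: the ligands Il1a, Il1b, Il18 and Il33, the antagonist Il1rn, and the receptor chains Il1r1, Il1r2, Il1rap, Il1rl1 and Il18r1. All 10 had at least 1 unique molecular identifier (UMI, 1 counted transcript) somewhere. Single-cell RNA sequencing with 3'-end droplet libraries had been done on CD45+ cells sorted from digested dermis of C57BL/6 mice. There were 5 libraries, 1 for each label: P50_Depil5D, P45, P50, P63 and P80. The last 4 are times in telogen, when hair follicles rest. P50_Depil5D carries the label of a 5-day depilation, that is, hair removal. The labels do not say whether P50 is the age at depilation or at collection, nor how many animals went into a library. No other treatment and no genetic change is stated.

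IL-1 alpha and IL-1 beta act on the same receptor, IL-1R1, which pairs with the accessory chain IL-1RAP to signal through MyD88 and NF-kappaB. IL-1Ra, the product of Il1rn, occupies IL-1R1 without signalling, and IL-1R2 is a decoy that binds ligand without passing on a signal. IL-33, a nuclear protein of barrier cells that is released on damage, acts on ST2 (Il1rl1) with IL-1RAP, while IL-18 acts on IL-18R1 with IL-18RAP. IL-1 beta and IL-18 are made as precursors that caspase-1 cuts, so a transcript level does not give the amount of active cytokine.

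Of 6223 barcodes, 6162 passed the filters of 200 or more detected genes and a mitochondrial share of up to 10%. These were 1494 in P50_Depil5D, 2142 in P45, 1462 in P50, 576 in P63 and 488 in P80. The libraries held 1032621 to 7491878 UMIs, and their median cell held 1249 to 2543. Each cell was gated on its own, by detection of at least 3 of 10 markers of a lineage, and none of the markers was one of the 10 genes. The gates held 1199 type 2 dendritic cells, 1236 dendritic epidermal T cells, 1054 keratinocytes, 422 macrophages, 193 regulatory T cells and 75 Langerhans cells, among others. Another 1118 cells had no gate and 342 had conflicting ones, together 23.7%. Defining markers fitted some gates: Cd209a was found in 83.2% of type 2 dendritic cells, C1qa in 89.6% of macrophages and Cd207 in 94.7% of Langerhans cells. Foxp3 was found in only 22.3% of regulatory T cells. The T cell receptor markers of dendritic epidermal T cells, Tcrg-V5 and Trdv4, were not in the table. That gate therefore rests on the other markers of its list, such as Fcer1g, Ctla2a and Nkg7. The keratinocyte and stromal gates held 19.4% of kept cells, with Ptprc (CD45) detected in 10.9% of them, against 49.1% of myeloid and 53.8% of lymphoid cells. Keratinocytes, Langerhans cells and dendritic epidermal T cells are cells of the epidermis, although the labels call the tissue dermal. Of the kept cells, 834 carried a barcode that also occurred in another library, with 50.6% of the P80 cells, 34.0% of the P63 cells and 173 barcodes common to P50_Depil5D and P50. In 98.7% of the pairs of gated cells with 1 barcode the gate was the same, against 22.0% of all pairs of cells from different libraries. Where leaving these cells out moved a gate's printed level in 1 library by about 1.5 times or more, the level without them is given too.

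Il1b was the most abundant of the 10 genes, with 9881 UMIs in 1806 cells. Il18r1 followed with 1496, Il1r2 with 1481 and Il1rn with 1251. Il18 had 426, Il1rl1 336, Il33 213, Il1r1 155 and Il1rap 123. Il1a, which keratinocytes are known to store, had 8 UMIs in 7 cells of all libraries, too few for any comparison. Levels are given from here on as summed UMIs of a gene per 1000000 summed UMIs of the gate (CPM), with exact Poisson 95% intervals. These intervals cover counting error only and are too narrow where a few cells hold most of the UMIs. CPM in 3'-end libraries counts molecules and needs no division by transcript length.

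**Figure D1:**
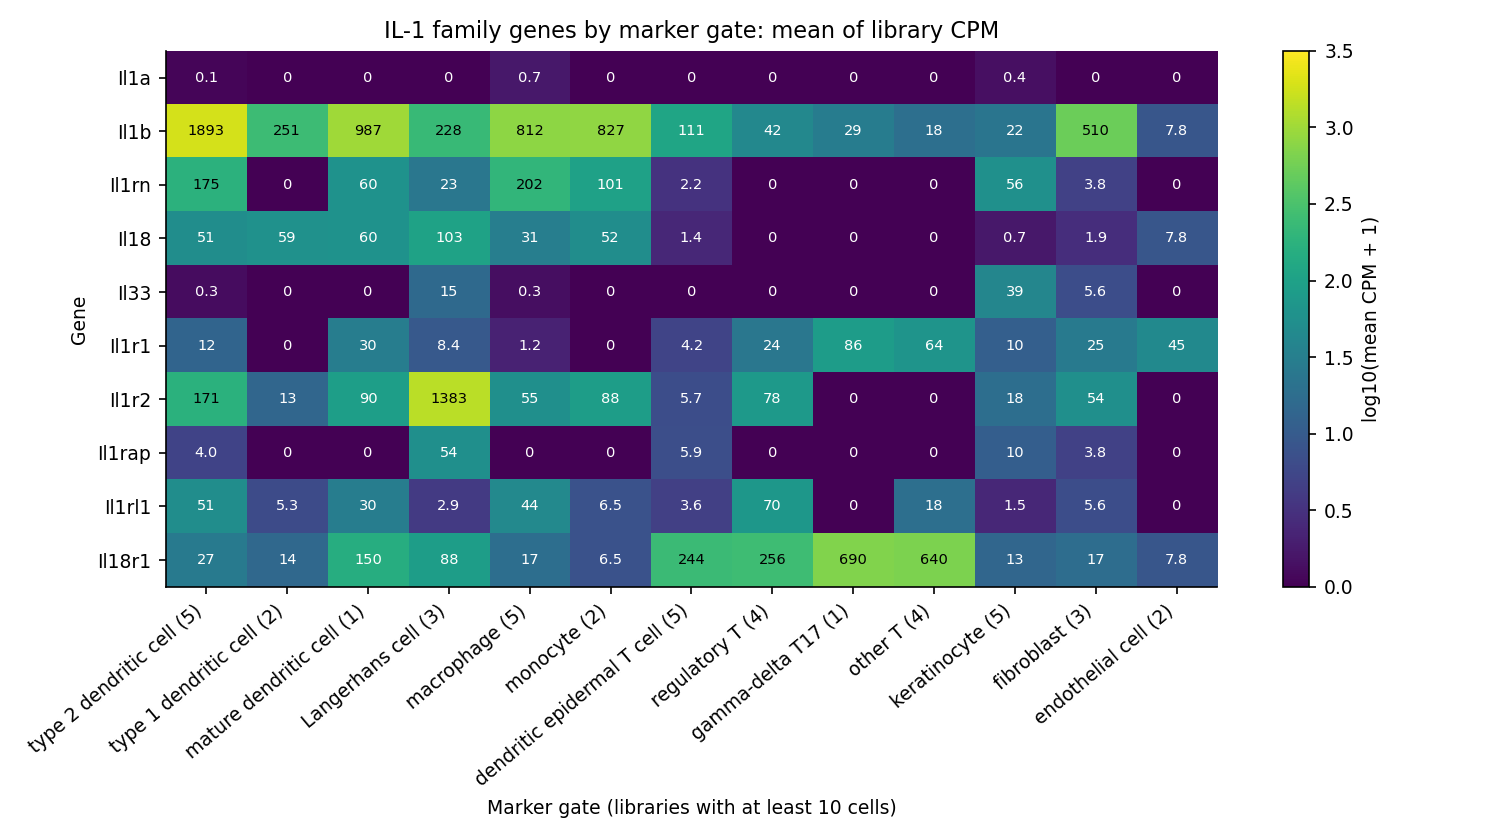
Mean CPM (unweighted mean over the libraries with at least 10 cells of the gate, their number in parentheses) of the 10 genes, in rows, over 13 marker gates, in columns; colour is log10(mean CPM + 1) and the printed number is the mean CPM. Il1b is highest in type 2 dendritic cells (1893), Il1r2 in Langerhans cells (1383) and Il18r1 in gamma-delta T17 cells (690) and other T cells (640).

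The sequences before 3 of these genes are shown because Il1b, its antagonist Il1rn and the decoy Il1r2 were high in the same dendritic cells, as described below. All 10 genes were found in the RefSeq promoter table (GRCm38.p6). Each line gives the 250 bases before the annotated start, on the gene's strand, with matches to 3 motifs in capitals. Il1b lies at chr2:129364570-129371139 on the minus strand, and its printed stretch is chr2:129371140-129371389. Il1rn lies at chr2:24336853-24351494 on the plus strand and has 3 starts in the table, of which the first (chr2:24336610-24336859) and the last (chr2:24345121-24345370) are printed. Il1r2 lies at chr1:40074079-40125231 on the plus strand, and its stretch is chr1:40085843-40086092. This stretch lies inside the gene's span, so it precedes the RefSeq start and not the first base of that span. The same holds for the downstream Il1rn stretch, and the upstream one ends just inside the span of Il1rn.
Il1b: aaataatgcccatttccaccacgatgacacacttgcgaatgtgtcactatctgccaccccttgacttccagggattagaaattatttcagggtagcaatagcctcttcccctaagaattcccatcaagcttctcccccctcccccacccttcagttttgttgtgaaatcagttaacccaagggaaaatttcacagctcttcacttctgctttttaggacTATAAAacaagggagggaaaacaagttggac
Il1rn, upstream start: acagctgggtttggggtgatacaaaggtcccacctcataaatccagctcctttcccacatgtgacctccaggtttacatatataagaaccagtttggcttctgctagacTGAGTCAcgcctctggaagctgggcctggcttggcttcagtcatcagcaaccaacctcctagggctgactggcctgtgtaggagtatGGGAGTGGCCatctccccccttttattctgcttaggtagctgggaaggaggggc
Il1rn, downstream start: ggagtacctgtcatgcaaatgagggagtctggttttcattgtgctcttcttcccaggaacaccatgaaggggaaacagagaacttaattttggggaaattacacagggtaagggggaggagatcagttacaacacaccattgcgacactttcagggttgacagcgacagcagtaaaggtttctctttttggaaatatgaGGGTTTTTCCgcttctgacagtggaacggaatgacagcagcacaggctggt
Il1r2: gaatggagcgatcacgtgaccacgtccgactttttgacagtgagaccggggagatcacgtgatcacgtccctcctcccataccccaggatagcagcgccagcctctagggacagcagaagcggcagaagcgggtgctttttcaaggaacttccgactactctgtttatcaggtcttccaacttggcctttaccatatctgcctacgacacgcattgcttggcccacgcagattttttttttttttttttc
The motifs searched on both strands were a kappaB pattern (GGGNNNNNCC), an AP-1 pattern (TGANTCA) and the TATA pattern TATAAA. Il1b had TATAAA 31 to 26 bases before its start. The upstream Il1rn stretch had a kappaB match 54 to 45 bases and an AP-1 match 141 to 135 bases before the start, and the downstream one a kappaB match 51 to 42 bases before it. The Il1r2 stretch held none of the 3 patterns. No 2 matches overlapped; the AP-1 pattern is its own reverse complement, so its match counts on both strands. Of all 32851 promoter windows of the same length, 45.8% held the kappaB pattern, 6.75% the AP-1 pattern and 12.4% TATAAA, so a kappaB match is common. These libraries read 3' ends and cannot tell which Il1rn start was used.

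Il1b, the inflammatory ligand, was a transcript of type 2 dendritic cells. That gate held 61.7% of all Il1b UMIs. Its level was 2339 CPM in P50_Depil5D, 1661 in P45, 1812 in P50, 1332 in P63 and 2321 in P80, so no library was low. Mature dendritic cells followed (987 CPM, 1 library with at least 10 cells), then monocytes (827 over 2 libraries) and macrophages (812, with an SD of 636 over 5 libraries). The ranges of these 3 gates overlap, so their order is not resolved. Fibroblast-gated cells averaged 510 CPM over 3 libraries, but in P50 their 32 UMIs came from 3 of 10 cells. After each cell was thinned to 1000 UMIs, 58.9% of type 2 dendritic cells had an Il1b UMI, against 2.92% of T cells, a class that should largely lack it (median depths 2489 and 1355 UMIs before thinning). The median depth was 2082.5 UMIs in macrophages, 3028 in Langerhans cells, 1591 in regulatory T cells, 1297 in dendritic epidermal T cells, 1984 in gamma-delta T17 cells and 2707.5 in keratinocytes, which are compared in the same way below.

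Within every library the myeloid gates were above the T, NK and innate lymphoid gates. Il1b in myeloid and lymphoid cells had 1795 and 14.9 CPM in P50_Depil5D, 1281 and 184 in P45, 1151 and 24.4 in P50, 1101 and 16.9 in P63, and 1844 and 170 in P80. Without shared barcodes the lymphoid level in P80 was 58.4 CPM, from 3 UMIs, and the mean difference below was 4.76. The mean log2 difference, with 10 CPM added to both levels, was 4.55 ± 1.44 (SD, 5 libraries; exact two-sided sign-flip permutation p = 0.0625). With 5 libraries this is the smallest p that the test can give, so it cannot reach 0.05; the same holds for the other contrasts below, of which 10 were computed. The lymphoid level was highest in P45, where dendritic epidermal T cells also held 455 CPM of summed type 2 dendritic cell markers, against 32.5 to 68.9 CPM in the 4 other libraries; the part of such carried-over or co-captured RNA was not tested.

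Il1rn, the receptor antagonist, had most of its UMIs in 3 kinds of cells. Type 2 dendritic cells held 41.4% of its UMIs, keratinocytes 22.9% and macrophages 11.7%. Gates with fewer cells had it too. Monocytes averaged 101 CPM over 2 libraries, and mature dendritic cells had 59.8 CPM in 1. Keratinocytes averaged 55.8 CPM over 5, and their range (21.1 to 104) overlaps that of monocytes (52.1 to 149). Macrophages had 256 CPM in P50_Depil5D, 133 in P45, 158 in P50, 0 of 45074 UMIs in P63 and 462 in P80. The P80 value rests on 11 UMIs in 5 of 23 cells, and the floor of 3 counts in P63 was 66.6 CPM. Type 2 dendritic cells had 204.5 CPM in P50_Depil5D, 136 in P45, 117 in P50, 396 in P63 and 22.2 in P80. The 2 extremes are thinly supported: 36 of the 61 UMIs in P63 came from 1 cell, P80 had 2 UMIs, and without shared barcodes the P63 level was 137 CPM and P80 had none. Keratinocytes, which make an intracellular form of the antagonist, had 46.3 CPM in P50_Depil5D, 39.9 in P45, 21.1 in P50, 104 in P63 and 67.9 in P80, the last being 102 CPM (7 UMIs) without shared barcodes. Thinned, Il1rn was found in 10.1% of type 2 dendritic cells and 9.04% of macrophages, against 0.307% of T cells. The myeloid over lymphoid difference was 3.78 ± 0.71 on the log2 scale (SD, above 0 in 5 of 5 libraries; exact sign-flip permutation p = 0.0625), and 3 of the 5 lymphoid sums had no Il1rn UMI.

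Il18, the second ligand cut by caspase-1, had low levels that were spread over antigen-presenting cells. Langerhans cells led with 51.8 CPM in P50_Depil5D, 99.5 in P45 and 157 in P50, from 6, 6 and 16 UMIs. P63 and P80 had only 4 and 1 Langerhans cells and are left out. Type 1 dendritic cells (58.7 CPM over 2 libraries), monocytes (51.5 over 2) and type 2 dendritic cells (51.2 over 5) were close to each other, and their ranges overlap that of Langerhans cells. Type 2 dendritic cells had 50.3 CPM in P50_Depil5D, 70.1 in P45, 65.1 in P50, 26.0 in P63 and 44.4 in P80; without shared barcodes P63 had 1 UMI, or 11.4 CPM. Keratinocytes averaged 0.672 CPM. Thinned, 13.9% of Langerhans cells and 0% of T cells had an Il18 UMI. The myeloid over lymphoid difference was 2.49 ± 0.31 on the log2 scale (SD, 5 of 5 libraries; exact sign-flip permutation p = 0.0625).

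Il33, the alarmin, belonged to the keratinocyte gate, which held 87.3% of its UMIs. The level there was 47.7 CPM in P50_Depil5D, 23.8 in P45, 35.2 in P50, 47.3 in P63 and 40.1 in P80. The 95% interval of P45 (17.6 to 31.5) lies below those of P50_Depil5D (33.2 to 66.3) and P63 (35.2 to 62.2). Many of these cells carried shared barcodes. Without them 58, 240, 57, 64 and 57 keratinocytes remained in P50_Depil5D, P45, P50, P63 and P80, with 32.4, 23.9, 15.5, 28.1 and 0 CPM. No Il33 UMI was found in 1563 T cells, which allows up to 1.18 CPM by the floor of 3 counts. Keratinocyte and stromal gates together stood above the immune gates by 2.10 ± 0.34 on the log2 scale (SD, 5 of 5 libraries; exact sign-flip permutation p = 0.0625), and by 1.24 without shared barcodes (4 of 5 libraries, exact permutation p = 0.125). The stromal share is small: fibroblasts averaged 5.63 CPM over 3 libraries and endothelial cells had no UMI.

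Il1r2, the decoy receptor, had its highest level in Langerhans cells. Langerhans cells had 1926 CPM (95% interval 1682 to 2196) in P50_Depil5D, 531 (363 to 749) in P45 and 1693 (1450 to 1964) in P50. The P45 level was the lowest and its interval does not meet the others. The 75 Langerhans cells, 1.22% of kept cells, held 29.4% of all Il1r2 UMIs, and the 1199 type 2 dendritic cells held 497 of the 1481. Keratinocyte markers summed to 7877 CPM in these Langerhans cells in P50_Depil5D, 1460 in P45 and 12493 in P50, lowest in P45 as Il1r2 was; their part in the difference was not tested. Il1r2 in keratinocytes themselves averaged 17.6 CPM. Thinned, 52.8% of Langerhans cells and 0.197% of dendritic epidermal T cells had an Il1r2 UMI.

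Type 2 dendritic cells came next for Il1r2, with 296 CPM in P50_Depil5D, 101 in P45, 149 in P50, 52.0 in P63 (79.8 without shared barcodes) and 255 in P80. Regulatory T cells, which are known to carry this decoy when activated, had 83.9 CPM in P50_Depil5D, 77.5 in P45, 113 in P50, 38.7 in P63 and 589 in P80. The P80 value rests on 6 UMIs in 2 of 7 cells, and the 1 UMI in P63 lay in a cell with a shared barcode. Against the other T cells the log2 difference was 3.03 ± 1.76 (SD, 5 of 5 libraries; exact sign-flip permutation p = 0.0625), and 2.31 without P80. Without shared barcodes it was 2.65 (above 0 in 4 of 5 libraries, exact permutation p = 0.125). The other T cells lay between 0 and 17.3 CPM in all libraries.

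Il1r1, the signalling receptor for both IL-1 ligands, was rare. Its highest level was in gamma-delta T17 cells, IL-17-producing T cells that are known to respond to IL-1, with 7 UMIs in 5 of 28 cells or 130 CPM (52.4 to 269). Other T cells without a subset followed with 9 UMIs in 85 cells, or 62.6 CPM (28.6 to 119), so the intervals overlap. Endothelial cells, the vessel lining, averaged 45.3 CPM over 2 libraries, type 2 dendritic cells 12.4 CPM over 5 and macrophages 1.18 CPM. Only P50_Depil5D and P45 had at least 5 gamma-delta T17 cells, and the log2 difference to the other T cells was 4.41 and 2.05 there (2 and 3 UMIs), a comparison whose exact permutation p cannot go below 0.5. Thinned, 12% of gamma-delta T17 and 0.395% of dendritic epidermal T cells had an Il1r1 UMI.

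Il1rap, the chain shared by IL-1 and IL-33 signalling, was highest in Langerhans cells, with 51.8 CPM in P50_Depil5D, 33.2 in P45 and 78.3 in P50, from 6, 2 and 8 UMIs. Keratinocytes held 43.9% of its UMIs at 4.09 to 16.7 CPM. No UMI was found in 422 macrophages, which allows up to 3.07 CPM. The myeloid and lymphoid gates were not told apart: the log2 difference was 0.16 ± 0.88 (SD, above 0 in 4 of 5 libraries; exact sign-flip permutation p = 0.688), and −0.02 without P50.

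Il1rl1, which encodes ST2, was found in regulatory T cells at 74.5 CPM in P50_Depil5D, 25.8 in P45, 102 in P50, 77.4 in P63 and 98.1 in P80. These are 8, 3, 9, 2 and 1 UMIs, too few to order the libraries (the P80 one had a shared barcode), and the sum over all is 23 UMIs in 193 cells, or 66.1 CPM (41.9 to 99.2). The difference to the other T cells was 2.28 ± 1.27 on the log2 scale (SD, 5 of 5 libraries; exact sign-flip permutation p = 0.0625) but 0.29 in P45 alone, and the mean was 1.59 without shared barcodes (above 0 in 4 of 5 libraries, exact permutation p = 0.188). Type 2 dendritic cells had more Il1rl1 UMIs in all, 146 of 336, at 22.0 CPM in P50_Depil5D, 51.3 in P45, 30.04 in P50, 65.0 in P63 and 88.8 in P80; without shared barcodes P63 had 103 and P80 128 CPM. In type 2 innate lymphoid cells, the classical ST2-bearing cells, all 3 UMIs came from 1 of 23 cells. Thinned, 5.85% of regulatory T cells and 0.212% of keratinocytes had an Il1rl1 UMI.

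Il18r1, the ligand-binding chain for IL-18, was the lymphoid member. Gamma-delta T17 cells had 690 CPM in P45, the library with 15 of their 28 cells. Other T cells had 535 CPM in P50_Depil5D, 556 in P45, 249 in P50, 1219 in P63 and 0 of 4872 UMIs in P80. Regulatory T cells had 140 CPM in P50_Depil5D, 293 in P45, 204 in P50, 387 in P63 and 196 in P80. Dendritic epidermal T cells had 103 CPM in P50_Depil5D, 365 in P45, 80.04 in P50, 555 in P63 and 114.9 in P80. The last 2 gates have the same highest pair, P63 and P45, whose intervals in dendritic epidermal T cells (423 to 716 and 309 to 427) lie above those of P50_Depil5D (81.4 to 128) and P50 (59.6 to 105). The myeloid gates were highest in P45 too, with 67.0 CPM of Il18r1, against 7.82 to 21.3 CPM in the other libraries. The part of carried-over or co-captured RNA in the P45 levels was not tested. Type 2 innate lymphoid cells had 22 UMIs in 23 cells, or 565 CPM. The lymphoid over myeloid difference was 2.90 ± 0.82 on the log2 scale (SD, 5 of 5 libraries; exact sign-flip permutation p = 0.0625). Thinned, 13.3% of dendritic epidermal T cells and 3.36% of macrophages had an Il18r1 UMI.

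**Figure D2:**
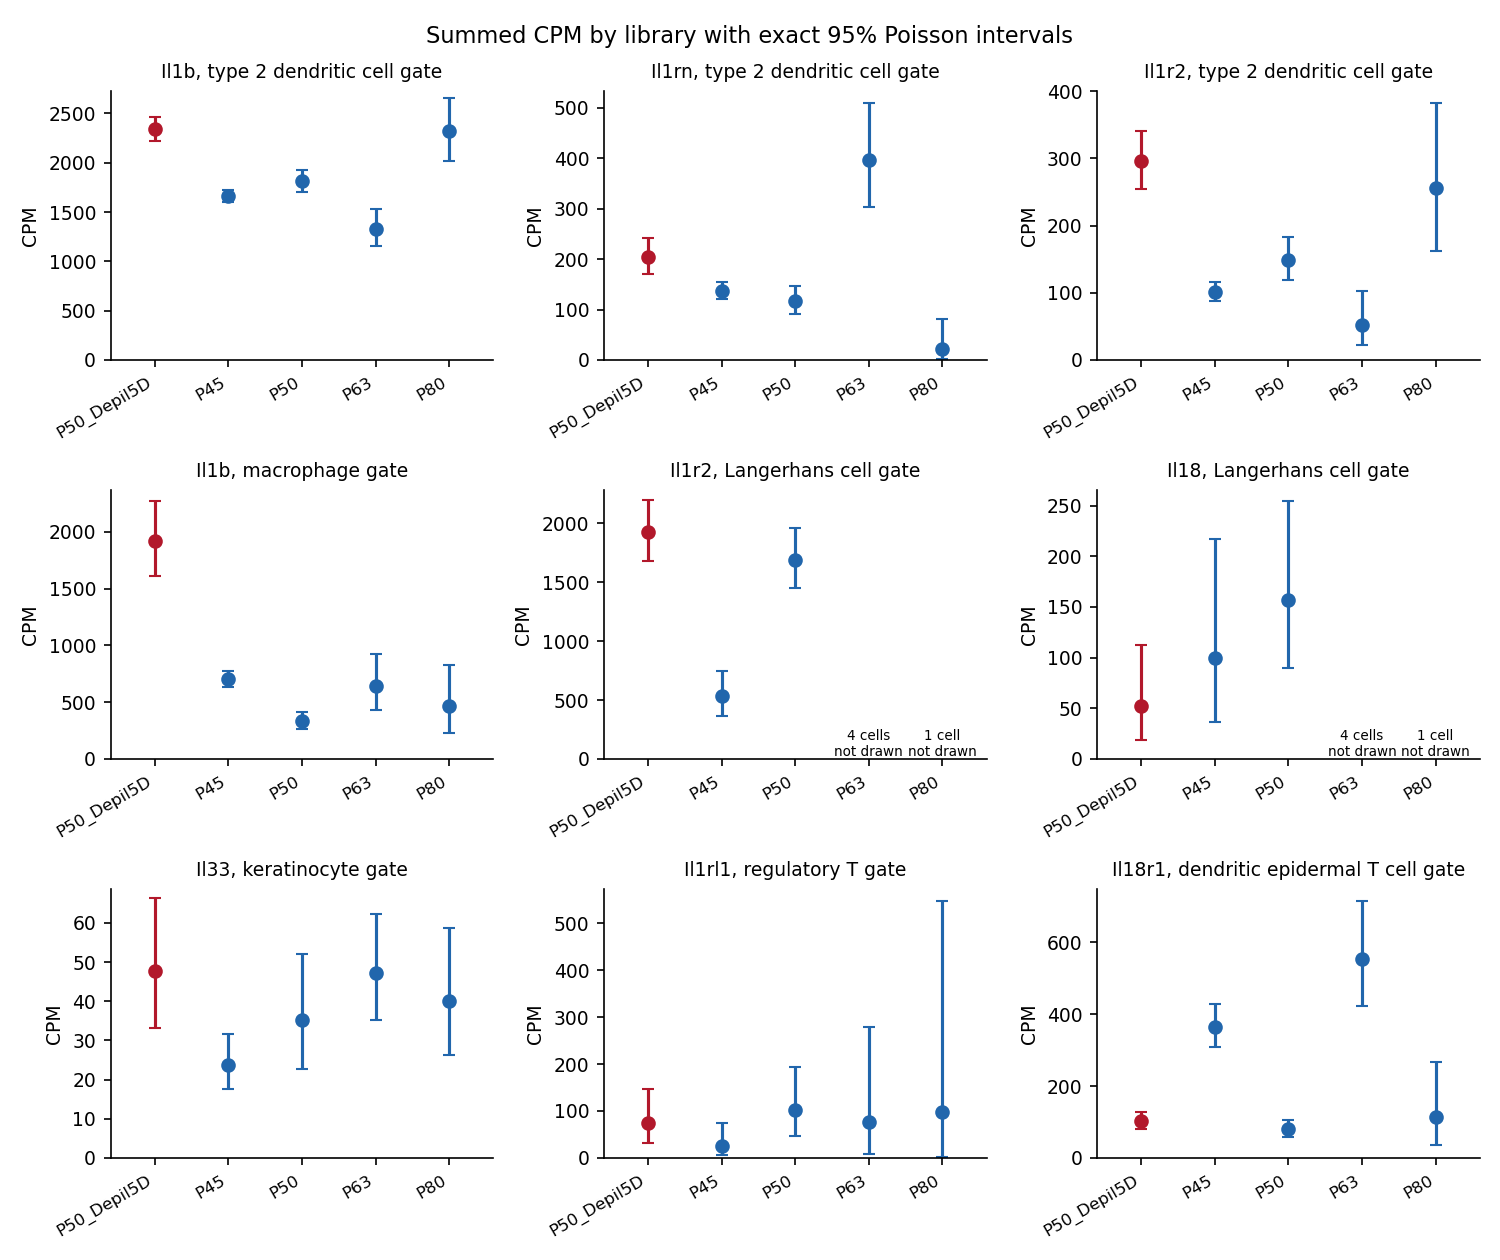
Summed CPM (y axis, linear from 0) in each library (x axis) for 9 pairs of gene and gate; points are CPM, bars are exact 95% Poisson intervals, P50_Depil5D is red and the telogen libraries are blue, and gates under 5 cells in a library are not drawn. Il1b in macrophages stands at 1919 CPM in P50_Depil5D, above the 332 to 704 CPM of the 4 others, and Il18r1 in dendritic epidermal T cells is highest in P63 and P45.

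Genes whose levels ran most like each member over the 13 gates were looked up, as a description with Pearson's r of log2(CPM + 10). The gates share their libraries and differ in depth and cell number. For Il1b these were Pid1 (0.973), Wfdc17 (0.948) and Ptpro (0.946). For Il1rn they were Rbm47 (0.883), Skint3 and Sowahc, and for Il18 Pak1 (0.934), Btk and H2-DMb1. Il33 ran with Fgfbp1 (0.986), Cbs and Me1. Among receptors, Il1r2 was nearest to Slc35e4 (0.862), Dcxr and Clec4n, Il1r1 to Itgb3 (0.895), Spata6 and Cdk13, and Il1rap to Tspan8 (0.923), Hcar2 and Ifi202b. Il1rl1 was nearest to Cd200r1 (0.949), Tank and Pim1, and Il18r1 to Galnt12 (0.958), Txk and Zap70, the last 2 of which are kinases of T cell receptor signalling.

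The comparison of P50_Depil5D with P50 asks how these genes stood 5 days after hair removal. The label P50_Depil5D names neither the method of hair removal nor a stage of the hair cycle, and the part of either was not tested. P50_Depil5D and P50 had 1 library each, so the ratios below compare these libraries and have no replicate check. The exact conditional 95% intervals of these ratios cover counting error only. Over all kept cells, Il1b had 688 CPM in P50_Depil5D and 465 in P50, a ratio of 1.48 (1.39 to 1.58). Il1r2 had 175 and 114 CPM in P50_Depil5D and P50, a ratio of 1.54 (1.35 to 1.76). Over all kept cells the agonist ligand and its decoy receptor thus stood higher by similar amounts in the depilated library. Within type 2 dendritic cells the 2 ratios differed, at 1.29 for Il1b and 1.99 for Il1r2. The antagonist Il1rn had 79.2 CPM in P50_Depil5D and 56.5 in P50 (1.402, 1.16 to 1.70), but its log2 ratio of 0.42 was 0.048 in thinned cells, where that of Il1b was 0.58.

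Il18r1 had 80.4 CPM in P50_Depil5D and 57.1 in P50 (1.41, 1.16 to 1.71). Il33 had 13.7 CPM in P50_Depil5D and 8.69 in P50 (1.58, 0.963 to 2.63). Its ratio was 2.90 (1.26 to 7.47) without shared barcodes, from 24 UMIs in P50_Depil5D and 8 in P50. Il18 was the one lower ligand, with 17.1 CPM in P50_Depil5D and 25.1 in P50 (0.679, 0.474 to 0.966). Il1r1 (1.03, 0.532 to 2.004), Il1rap (0.982, 0.534 to 1.80) and Il1rl1 (1.03, 0.667 to 1.58) had intervals on both sides of 1. Il1a had 1 UMI in P50_Depil5D and 0 in P50.

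None of the 9 members with at least 10 UMIs in the 2 libraries together was past 2-fold on the log2(CPM + 10) scale, where 0.0593% of the 11808 genes so counted were higher and 0.44% lower. The members' median log2 ratio was 0.34, against −0.04 over all these genes, and 7 of 9 members were above 0, against 40.3% of all. Set beside the 4 telogen libraries, the depilated one lay outside their range for Il1r2, with 175 CPM against 37.7 to 114 CPM, and within it for the 8 others. Without shared barcodes it also lay above the range for Il33 (8.23 CPM against 0 to 7.81) and for Il1rap (7.89 against 6.03 to 7.80). Its Il1b level of 688 CPM lay below the 702 CPM of P45; without shared barcodes it was 748 CPM, above the 704 of P45 and below the 793 of P80. Whole-library levels also depend on the share of each cell type. Myeloid gates held 23.1% of kept cells in P50_Depil5D and 25.4% in P50. Among these, macrophages were 2.21% of kept cells in P50_Depil5D and 7.32% in P50. Type 2 dendritic cells were 16.6% in P50_Depil5D and 14.7% in P50. The part of these shares in the whole-library ratios was not tested.

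**Figure D3:**
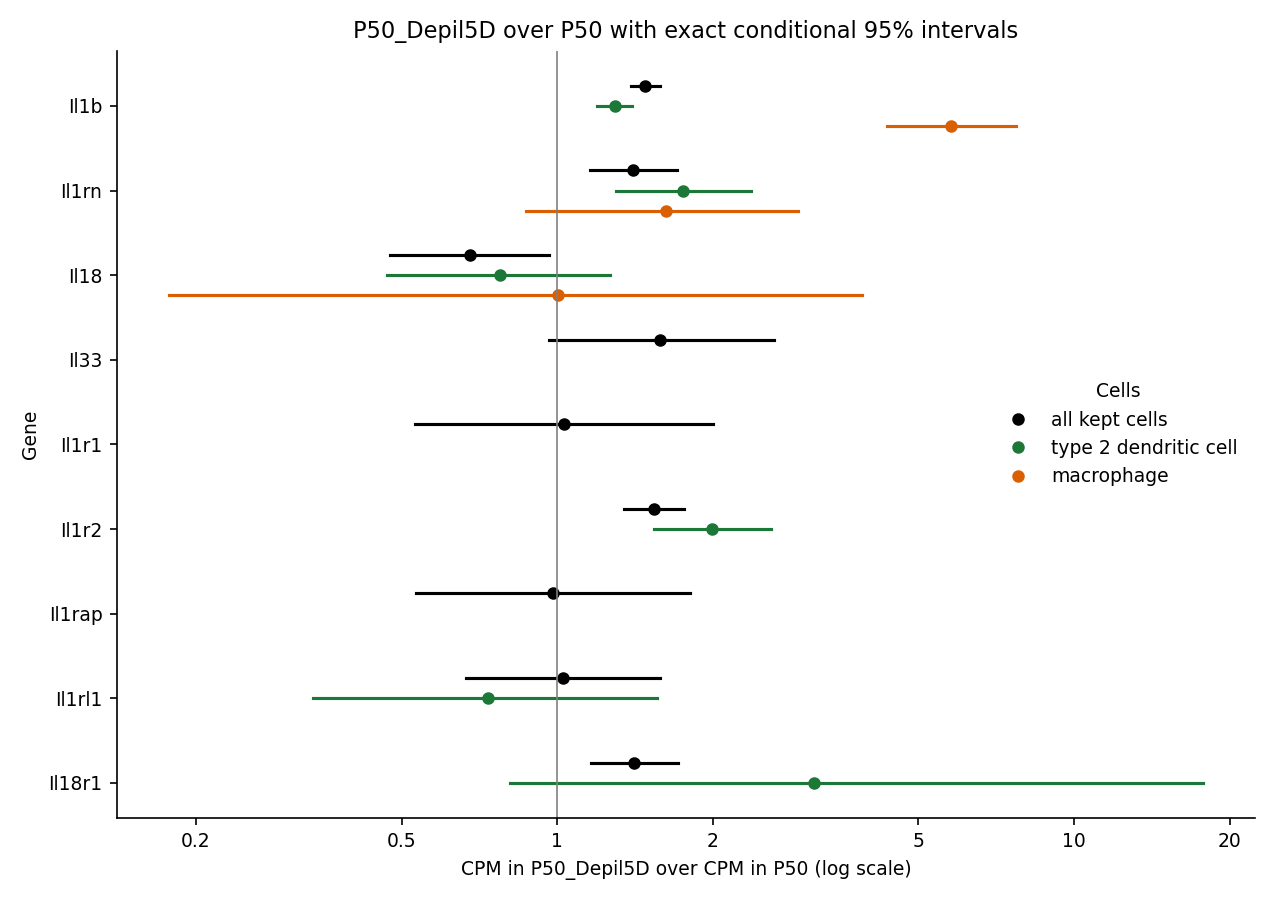
CPM in P50_Depil5D over CPM in P50 (x axis, log scale) for 9 genes (y axis) over all kept cells, type 2 dendritic cells and macrophages; points are ratios, lines are exact conditional 95% intervals for counting error, and the grey line marks a ratio of 1. Pairs with fewer than 10 UMIs in both libraries together are not drawn. The macrophage ratio of Il1b, 5.78, stands apart from the other Il1b ratios.

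Within type 2 dendritic cells the same 3 genes were higher in P50_Depil5D (248 cells) than in P50 (215 cells). Il1b had 2339 CPM in P50_Depil5D and 1812 in P50, a ratio of 1.29 (1.19 to 1.397), with a UMI in 185 of 248 and 147 of 215 cells. Il1rn had 204.5 CPM in P50_Depil5D and 117 in P50 (1.75, 1.30 to 2.38). Il1r2 had 296 CPM in P50_Depil5D and 149 in P50 (1.99, 1.54 to 2.59), the largest of the 3. Without shared barcodes the ratios were 1.31, 1.72 and 2.03. Thinning to 1000 UMIs a cell took the log2 ratio of Il1rn to 0.23, against 0.76 as reported, while Il1r2 stayed at 1.06, against 0.95. The log2 ratio of Il1b, 0.37 as reported, was 0.23 in thinned cells, 0.25 as a mean of per-cell CPM, 0.54 with the neighbours' gate and 0.60 with TMM scaling. Il18 (0.773, 0.469 to 1.27) and Il1rl1 (0.733, 0.337 to 1.56) were not told apart from 1. None of 6 members was past 2-fold in this gate, where 0.553% of genes were higher and 2.3% lower. Genes known to answer to tissue handling summed to 5485 CPM in P50_Depil5D and 7056 in P50, and mature dendritic cell markers to 204.5 and 938 CPM in P50_Depil5D and P50, both lower in the depilated library; their part in the ratios was not tested.

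Il1b in macrophages differed by more than any other gene and gate drawn in the plot of ratios. The gate had 33 cells in P50_Depil5D and 107 in P50, and Il1b had 1919 CPM (1609 to 2272) in P50_Depil5D and 332 CPM (263 to 415) in P50. The ratio was 5.78 (4.34 to 7.74), from 135 UMIs in P50_Depil5D and 78 in P50. A UMI was found in 19 of 33 cells in P50_Depil5D and 24 of 107 in P50, and no cell held more than 23 and 15 UMIs in P50_Depil5D and P50. The 3 other telogen libraries lay between both, with 704 CPM in P45, 643 in P63 and 462 in P80. It was the 1 of 3 countable members past 2-fold; 4.98% of genes in this gate were higher by as much and 12.9% lower. The ratio was 6.13 (4.58 to 8.25) without shared barcodes. Its log2 value of 2.50 was 3.26 where each cell took the most common gate of its 15 nearest neighbours, and 3.11 in thinned cells. Il1rn did not follow clearly, at 256 CPM in P50_Depil5D and 158 in P50 (1.62, 0.870 to 2.93).

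The macrophage gate did not hold macrophage genes alone. Cd209a, a type 2 dendritic cell marker, had a UMI in 34.6% of its cells, and the 10 markers of those dendritic cells summed to 2687 CPM (8 of 10 detected) in P50_Depil5D and 1904 CPM (9 of 10) in P50. Over the 3 other libraries they summed to 3177 to 4329 CPM, with Il1b at 462 to 704 CPM there. Monocyte markers summed to 284 CPM in P50_Depil5D and 434 in P50. Neutrophil markers were at 0 of 70331 UMIs in P50_Depil5D, against 38.3 CPM in P50. Handling genes summed to 8858 CPM in P50_Depil5D and 6564 in P50, and to 11362 to 14877 CPM in the 3 other libraries; their part in the Il1b ratio was not tested.

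In Langerhans cells Il1r2 was close in both libraries, at 1926 CPM in P50_Depil5D and 1693 in P50 (1.14, 0.929 to 1.396). Il18 had 51.8 CPM in P50_Depil5D and 157 in P50 (0.331, 0.106 to 0.891), from 6 UMIs in 27 cells in P50_Depil5D and 16 UMIs in 23 cells in P50; its log2 value was −1.43, and −3.06 in thinned cells. Il1b had 14 UMIs in P50_Depil5D, 12 of them in 1 cell, and 0 in P50. Of 4 countable members, 1 was higher past 2-fold (Il1b) and 1 lower (Il18), in a gate where 6.43% of genes were higher and 8.1% lower by as much. No Langerhans cell of either library had a shared barcode.

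Keratinocytes had 46.3 CPM of Il1rn in P50_Depil5D and 21.1 in P50 (2.19, 1.16 to 4.34) and 47.7 CPM of Il33 in P50_Depil5D and 35.2 in P50 (1.36, 0.788 to 2.36). Neither was past 2-fold on the log2(CPM + 10) scale, where 0.724% of genes were higher and 0.487% lower. The Il1rn ratio was not steady: it was 3.89 (1.56 to 11.5) in the 58 and 57 cells without shared barcodes, and its log2 value turned to −0.55 in thinned cells. Among T cells, Il18r1 in dendritic epidermal T cells had 103 CPM in P50_Depil5D and 80.04 in P50 (1.28, 0.892 to 1.86), and regulatory T cells had 140 CPM in P50_Depil5D and 204 in P50 (0.685, 0.322 to 1.44). Il1rl1 and Il1r2 in regulatory T cells also had intervals on both sides of 1 (0.731, 0.245 to 2.13, and 0.740, 0.266 to 2.03). Over the T, NK and innate lymphoid gates together Il1r2 was lower, at 12.8 CPM in P50_Depil5D and 30.9 in P50 (0.414, 0.189 to 0.861). These levels rest on 12 UMIs in 8 cells in P50_Depil5D and 24 UMIs in 8 cells in P50.

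Other genes of the pathway were compared over all kept cells. Of 11 further family ligands and receptors, 4 had at least 10 UMIs in both libraries together, with a median log2 ratio of −0.01. Il18bp, a soluble inhibitor of IL-18, had 0.914 CPM in P50_Depil5D and 4.35 in P50 (3 and 14 UMIs, 0.210, 0.0388 to 0.754). Sigirr, an inhibitory receptor, had 11.6 CPM in P50_Depil5D and 9.31 in P50 (1.24, 0.750 to 2.08), and Il18rap, the signalling partner of IL-18R1, had 8.23 and 8.69 CPM in P50_Depil5D and P50. The IL-36 ligands Il1f6 and Il1f8 had no UMI in either library.

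Of the inflammasome and processing genes, 1 of 8 countable ones was above 0, with a median log2 ratio of −0.27, against 40.3% of all genes above 0 and a median of −0.04. Casp4, the inflammatory caspase of the non-canonical inflammasome, had 20.7 CPM in P50_Depil5D and 36.0 in P50 (0.575, 0.420 to 0.783). Pycard, the adaptor ASC, had 127 CPM in P50_Depil5D and 165 in P50 (0.770, 0.676 to 0.878). Aim2, a DNA sensor, was the one above 0, with 13.4 CPM in P50_Depil5D and 9.002 in P50 (1.49, 0.911 to 2.47). None was past 2-fold; of all genes, 0.0593% were higher and 0.44% lower by as much.

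Of the receptor signalling genes, 11 of 18 were above 0, with a median log2 ratio of 0.06, against the same 40.3% and −0.04 over all genes; no test was made of a list. The largest were Rela, an NF-kappaB subunit (39.3 CPM in P50_Depil5D, 28.9 in P50; 1.36, 1.03 to 1.80), Map3k8 (1.25, 1.09 to 1.44) and Tnfaip3, a brake on NF-kappaB (1.23, 1.09 to 1.39). Of genes known to be induced by IL-1 family cytokines, 10 of 14 were above 0, with a median of 0.30, against 40.3% and −0.04 over all genes. This did not hold in every gate. Within type 2 dendritic cells 1 of 6 was above 0, with a median of −0.58, against 35.6% and −0.15 over all genes. Within macrophages 4 of 4 were above 0, with a median of 0.65, against 45.3% and −0.11 over all genes. Over all kept cells, Ptgs2, which makes prostaglandins, had 60.3 CPM in P50_Depil5D and 30.1 in P50 (2.004, 1.56 to 2.58). The chemokine Ccl20 had 13.7 CPM in P50_Depil5D and 4.66 in P50 (2.94, 1.61 to 5.69). The neutrophil chemokine Cxcl1 was the 1 gene of these lists past 2-fold over all kept cells, and it was lower. It had 9.45 CPM in P50_Depil5D and 33.5 in P50 (0.282, 0.183 to 0.423). The 10 handling genes had a median of −0.04, with 4 above 0; Fosb had 257 CPM in P50_Depil5D and 319 in P50 (0.805, 0.734 to 0.882), Atf3 635 and 741 CPM in P50_Depil5D and P50 (0.857, 0.807 to 0.909) and Hspa1a 1063 and 882 CPM in P50_Depil5D and P50 (1.21, 1.15 to 1.27).

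Within type 2 dendritic cells, cells with Il1b were compared with those without it, each thinned to 1000 UMIs, which left out 41 shallower cells. Il1rn was found in 14.5% (99 of 682; exact binomial 95% interval 11.96 to 17.4) of cells with an Il1b UMI and 3.78% (18 of 476; 2.26 to 5.91) of cells without. Il1r2 was found in 15.4% (12.8 to 18.3) of cells with an Il1b UMI and 6.30% (4.29 to 8.88) of cells without. Both genes were higher beside Il1b in 5 of 5 libraries, but P63 and P80 rest on few cells. Il1rn was found in 5 of 35 cells with and 1 of 27 without Il1b in P63, and in 1 of 23 and 0 of 16 in P80. Il1r2 was found in 2 of 35 cells with and 1 of 27 without Il1b in P63. The intervals of these 3 pairs overlap, as do those of Il1rn in P50 and of Il1r2 in P50_Depil5D, P50 and P80. They are separate for both genes in P45 and for Il1rn in P50_Depil5D. Without shared barcodes Il1r2 was so in 5 of 5 and Il1rn in 4 of 5, since the cells left in P80, 12 with and 13 without Il1b, had no Il1rn UMI; over all libraries the shares of Il1rn were then 14.6% with and 3.92% without Il1b. In P50_Depil5D the shares of Il1rn were 17.1% with and 2.38% without Il1b, and in P50 13.6% with and 5.68% without. Il18 was not higher beside Il1b in any library, with 4.84% (3.35 to 6.73) of cells with and 6.93% (4.82 to 9.60) of cells without in all. Il1rl1 had 4.55% with and 4.83% without. Il1rn and Il1r2 were thus detected more often beside Il1b than without it; the shares describe cells that come from the same 5 libraries.

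**Figure D4:**
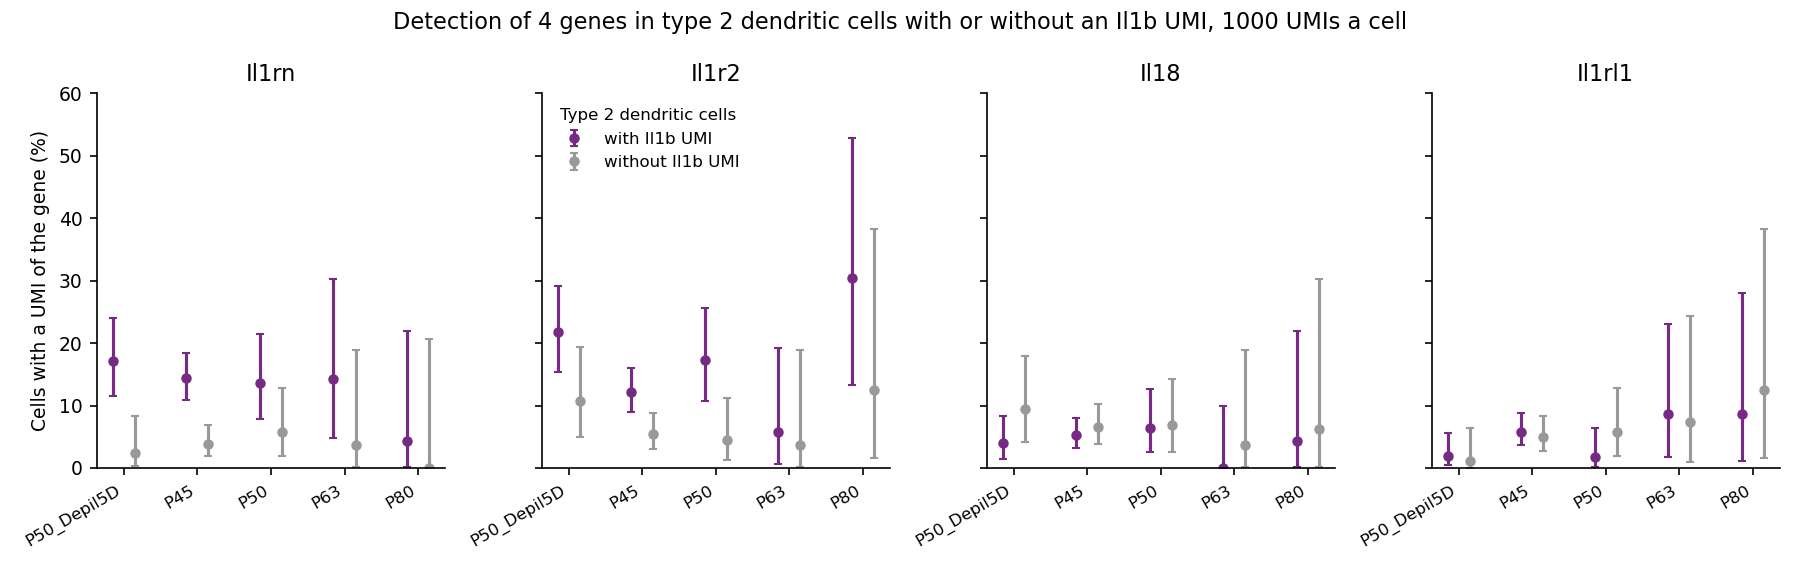
Share of type 2 dendritic cells with a UMI of Il1rn, Il1r2, Il18 or Il1rl1 (panels; y axis in percent) in each library (x axis), for cells with an Il1b UMI (purple) and without one (grey), all thinned to 1000 UMIs; bars are exact binomial 95% intervals. For Il1rn and Il1r2 the purple point is above the grey one in 5 of 5 libraries (for Il1rn in 4 of 5 without shared barcodes).

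The UMIs of the 3 genes were spread unevenly over these 1199 cells. The tenth of cells with most of a gene's UMIs held 39.5% of those of Il1b, 72.4% of Il1r2 and 87.8% of Il1rn. Il1b had 6093 UMIs in these cells and Il1rn 518, and such a share tends to be higher for a gene with fewer UMIs, so the 3 shares are not compared. Over all libraries, the 56 cells with at least 2 mature dendritic cell markers had 2417 CPM of Il1b, 210.0 of Il1rn and 292 of Il1r2. The 1143 others had 1773, 150.4 and 137 CPM, and the median depths were 3669.5 and 2437 UMIs. Of the 56 cells, 36 were from P45, and P80 had none. Il1b was higher in such cells in P50_Depil5D, P45 and P50, Il1rn in P45 and P50, and Il1r2 in P50_Depil5D and P45. In P50_Depil5D Il1rn had 58.9 CPM in 9 such cells and 213 CPM in the 239 others. In P50 Il1r2 had 128 CPM in such cells and 150 CPM in the others. All 3 genes were lower in P63, which had 2 such cells.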

How the data were processed

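Per the labels' protocols, CD45+ live cells were sorted from digested dermal tissue, captured in 10x Genomics droplets and made into 3'-end libraries. The deposited matrices hold whole-number UMI counts per gene and cell, with no normalization by the authors that the values show. Per the submitters' processing notes the build was mm10, and Seurat is named without version or role. Which aligner, counter, annotation and cell-calling rule were used is not given in the sources used here. Gene positions are those of GENCODE vM21, which held 27645 of the 27998 gene identifiers.

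The filters kept cells of 200 or more genes with a mitochondrial share of 10% or less. A cell was gated to the lineage of which it had at least 3 of 10 markers, or at least 2 markers for a T cell subset. Ties stayed ungated, and cells without a lead of 2 markers over another compartment were called mixed. There were 18 lineages and 5 T subsets. Of the markers, Tcrg-V5, Trdv4 and Tcrg-V6 were not found in the table. No doublet caller was run; mixed cells were left out of the gates, and an alternative left out the 2% of cells with most UMIs. Counts were summed by gate and library and scaled to 1000000 (CPM). Shares have exact Clopper-Pearson intervals, levels exact Poisson intervals and ratios exact conditional intervals, all at 95%. The floor is 3 counts per gate and library, or per gate where all libraries are summed.

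Contrasts between gates were tested within libraries by an exact two-sided sign-flip permutation of the mean log2 difference, leaving out libraries with under 5 cells in a class; the p-values printed are not adjusted for the 10 contrasts. P50_Depil5D and P50 are 1 library each, so no test was made between them. A gene counted as past 2-fold at an absolute log2((CPM + 10)/(CPM + 10)) of at least 1, among genes with at least 10 UMIs in the 2 libraries. The fold understates the change of low genes. Of each pathway list, up to 3 genes with the largest absolute log2 ratio over all kept cells were to be named, and for likeness the 3 genes with the highest r. The free-RNA class for Il1r1, Il1r2 and Il1rap was to be NK or B cells, of which there were 8 and 9; dendritic epidermal T cells were taken instead, after their number was seen. The 10 genes, the lists and the markers were chosen with earlier results of these data known. The ratio step was tested on simulated counts. Tools were numpy 2.4.6, scipy 1.17.1, pandas 2.3.3, scikit-learn 1.9.0, R 4.3.3 and edgeR 4.0.16, the last for the TMM scaling of an alternative.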

Additional observations from a re-analysis of the deposited data

How the results depend on the processing

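No paired analysis was possible because each group is 1 library and the labels pair none of them. The 10 contrasts between gates and the 10 ratios of P50_Depil5D over P50 in all kept cells were recomputed under a set of alternatives. These were at least 500 genes per cell, no 2% of cells with most UMIs, and no shared barcodes or 1 copy of each. Further ones were 1 CPM added, TMM scaling, the mean of per-cell CPM and cells thinned to 1000 UMIs. Of the contrasts and ratios, only the contrasts were also recomputed with gates of 1 marker more or less, the most common gate of 15 neighbours, and without each library in turn. Only the ratios over all kept cells were also recomputed without keratinocyte and stromal gates. Some ratios within single gates, which were not planned, were recomputed with the changed gates and the neighbours' gate too. Apart from Il1rap, and from Il1a, which was 0 without P45, these contrasts kept their direction under all of these settings. TMM scaling moved the myeloid over lymphoid value of Il1b to 4.95 and the lymphoid over myeloid value of Il18r1 to 2.52. Leaving out a library gave 4.14 to 4.997 for Il1b, 3.54 to 4.02 for Il1rn, 2.39 to 2.58 for Il18, 2.01 to 2.23 for Il33, 2.05 to 4.41 for Il1r1, 2.31 to 3.40 for Il1r2, 1.98 to 2.78 for Il1rl1, 2.54 to 3.03 for Il18r1 and 0 to 0.04 for Il1a, all on the log2 scale. Il1rap gave −0.021 to 0.54 and reversed without P50 (−0.021).

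For P50_Depil5D over P50 in all kept cells, the log2 ratio of Il1rn went to 0.048 in thinned cells (0.42 as reported). That of Il33 was 0.51 without shared barcodes and 0.32 without keratinocyte and stromal gates (0.34 as reported). That of Il1a was 0.00 without the 2% of cells with most UMIs. Il1rn in keratinocytes turned to −0.55 when thinned (0.86 as reported). The cause was not tested. Adding 1 CPM in place of 10 took the genes past 2-fold to 507, against 59, since low genes then pass on few UMIs; no other setting moved that count by more than 1.5 times. Depth limits the rare members most: Il1a, Il1rap and Il1r1 had 8, 123 and 155 UMIs in all, so differences in them were mostly not detectable.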

Other observations

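Ungated cells, which the comparisons between gates leave out, held Il1b at 1057 CPM in P50_Depil5D (277 cells) and 415 CPM in P50 (293 cells), a ratio of 2.55 (2.17 to 2.997, counting error only). Il1r2 in the same cells had 112 CPM in P50_Depil5D and 52.7 in P50 (2.12, 1.32 to 3.47), and Il18r1 had 230.2 CPM in P50_Depil5D and 147 in P50 (1.56, 1.16 to 2.11). Cells with conflicting gates had 454 CPM of Il1b in P50_Depil5D and 380.5 in P50 (1.19, 0.810 to 1.78).

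In the keratinocyte and stromal gates together Il1b ran the other way, with 6.51 CPM in P50_Depil5D and 44.4 in P50 (0.147, 0.0448 to 0.377). Of its 34 UMIs in P50, 32 lay in 3 fibroblast-gated cells. Within the macrophage gate, Cxcl2, a neutrophil chemokine, had 3540 CPM in P50_Depil5D and 954 in P50, a ratio of 3.71; this gene was chosen after its values were seen.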
